A study of Mus musculus with 8 samples.

Results

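The antigen receptor loci are the gene clusters that B and T lymphocytes cut and rejoin to make antibodies and T cell receptors. CTCF, a zinc finger protein that binds DNA and stops chromatin loops, occupied 338 of the 104008 sites of the deposited table inside these 5 loci. A site was taken when its centre lay in a window of the mouse build mm9 around the immunoglobulin heavy chain locus Igh (chr12:114400000-117300000), the light chain loci Igk (chr6:67400000-70800000) and Igl (chr16:18900000-19300000), the joint T cell receptor locus Tcra/Tcrd (chr14:52900000-54950000) or Tcrb (chr6:40750000-41600000). The windows held 107 sites at Igh, 85 at Igk, 11 at Igl, 93 at Tcra/Tcrd and 42 at Tcrb. The rule used position alone and no read count.

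The cells were iMEF2, one line of mouse embryonic fibroblasts that was immortalized by knockdown of p19Arf and is called KO2 in the study. Both groups carried floxed Ash2l alleles and a Cre-ER recombinase that 4-hydroxytamoxifen (HOT) switches on. The +HOT group received 5 nM HOT for 7 days and the -HOT group received the ethanol vehicle, and +HOT cells stop dividing during that time. Ash2l is a core subunit of the enzyme complexes that methylate lysine 4 of histone H3. CTCF was measured by ChIP-seq in 2 libraries per group, named R1 and R3 in the deposited columns, and the comparison asked where its binding differs after loss of Ash2l.

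In lymphocytes the RAG recombinase joins 1 V segment to D and J segments at a pair of recombination signals, each a heptamer and a nonamer separated by a spacer. CTCF sites are known to shape which V segments come near the D and J segments, since cohesin-driven loops tend to stop at CTCF sites whose motifs face each other. Known elements of this kind are IGCR1 between the Igh V and D segments, Cer and Sis between the Igk V and J segments, and the cluster of CTCF sites beyond the 3′ end of Igh. Fibroblasts do not rearrange these loci.

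The CTCF sites next to heavy chain V segments had one layout, which the reference sequence shows directly. Of 113 annotated VH segments, 35 had a CTCF motif match on their own strand within the 120 bases after the V segment. The other strand was not searched for matches beside V segments, here or at the other loci. Of these 35 matches, 25 lay in a site of the table. A heptamer and nonamer were found at 24 of the 25. They were also found at 98 of all 113 VH segments, so the signal was not particular to the bound flanks. Among these were 51 of the 57 Ighv1 segments, none of which had a CTCF match in the 120 bases. The heptamer was searched as CACAGTG beginning with CAC and with at most 2 mismatches, the nonamer as ACAAAAACC with at most 4, on the strand of the V segment only. Only spacers of 22, 23 or 24 bases and heptamers near the V end were searched at Igh, so a spacer close to 23 was set by the search. Within these limits the spacer was 23 bases in all 24. The CTCF match began 12 to 17 bases (median 17) past the nonamer, that is 51 to 62 bases past the V segment. In windows of the same length placed 2000 bases further on, a signal was found in 2 of 113 (1.77%) and a CTCF match in 0. The following 5 flanks show this layout, read 5′ to 3′ along the V strand (the minus strand of chromosome 12), with the heptamer, the nonamer and the CTCF match in capitals. Ighv2-3 and Ighv12-3 belong to the sites named by rule, and Ighv5-6, Ighv7-4 and Ighv11-1 were chosen after their values were seen, to show other families and a site that was not called.

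Ighv2-3 flank: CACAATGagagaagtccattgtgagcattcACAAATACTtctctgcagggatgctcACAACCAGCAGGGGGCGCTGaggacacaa

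Ighv5-6 flank: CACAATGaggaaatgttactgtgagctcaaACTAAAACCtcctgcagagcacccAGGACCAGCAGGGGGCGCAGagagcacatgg

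Ighv7-4 flank: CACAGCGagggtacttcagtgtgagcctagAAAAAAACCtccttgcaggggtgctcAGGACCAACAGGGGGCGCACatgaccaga

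Ighv12-3 flank: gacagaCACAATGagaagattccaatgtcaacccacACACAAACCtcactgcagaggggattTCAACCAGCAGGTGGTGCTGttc

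Ighv11-1 flank: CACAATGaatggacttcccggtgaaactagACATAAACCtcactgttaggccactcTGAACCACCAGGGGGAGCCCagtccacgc

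These lie at chr12:114849310-114849394, chr12:114863632-114863716, chr12:115460914-115460998, chr12:115604652-115604736 and chr12:115220005-115220089 of mm9. The first 4 belong to gained sites and the fifth to a site whose reads differed little between the groups, and all 5 hold the same 3 elements in the same order. The 5 were picked from flanks that held all 3 elements, so the shared layout was set by the choice, and only the fifth was uncalled. Whether the layout goes with gain was not tested.

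A pair of sites lay beside Ighd1-1, on its V side, at the position known for IGCR1. The annotated D, J and C segments reach to chr12:114766265, past the pair on its V side. The pair was therefore counted with that part and not between the V and D segments. Their matches are shown with 20 bases on each side, each read along the strand of its own match, because the pair reads in opposite directions.

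Igh D-side site: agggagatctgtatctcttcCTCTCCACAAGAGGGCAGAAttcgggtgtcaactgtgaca

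Igh V-side site: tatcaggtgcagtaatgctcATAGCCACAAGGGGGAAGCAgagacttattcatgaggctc

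The first is chr12:114723457-114723516 on the minus strand and reads toward the D and J segments. The second is chr12:114726075-114726134 on the plus strand and reads toward the V segments. The centres of the pair are 2516 bp apart.

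The 3 sites between the last Igk V segment and Igkj1, the first J segment, are shown in the same way since they also differ in direction and in response.

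Igk V-side site: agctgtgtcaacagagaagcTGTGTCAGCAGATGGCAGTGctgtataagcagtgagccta

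Igk middle site: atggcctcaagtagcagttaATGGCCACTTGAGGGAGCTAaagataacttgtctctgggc

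Igk J-side site: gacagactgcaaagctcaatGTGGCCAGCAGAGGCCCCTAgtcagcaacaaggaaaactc

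They lie at chr6:70659847-70659906 (minus strand), chr6:70663282-70663341 (plus) and chr6:70664372-70664431 (plus). The V-side match reads back toward the V segments and the other two read toward the J segments.

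Duplicated sequence is common in these loci, and the sites with the most reads at Igl are an example. Their match is identical over its 20 bases, and 58 of the 60 bases shown agree.

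Igl Iglc3-side site: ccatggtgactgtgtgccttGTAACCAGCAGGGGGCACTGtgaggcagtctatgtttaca

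Igl Iglc2-side site: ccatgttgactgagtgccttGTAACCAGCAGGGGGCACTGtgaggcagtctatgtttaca

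They lie at chr16:19003219-19003278 and chr16:19146857-19146916, both on the plus strand. At Tcra, the sites upstream of Trav8d-2 and Trav8n-2, near copies of each other, agree at 59 of 60 bases, while the site upstream of Trav3-3, chosen after its values were seen, moved the other way.

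Trav8d-2 upstream site: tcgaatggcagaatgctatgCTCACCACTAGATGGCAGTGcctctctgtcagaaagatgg

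Trav8n-2 upstream site: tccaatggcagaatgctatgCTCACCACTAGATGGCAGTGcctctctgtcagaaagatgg

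Trav3-3 upstream site: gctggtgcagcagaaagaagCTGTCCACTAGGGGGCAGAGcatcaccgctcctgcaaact

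They lie at chr14:53661857-53661916, chr14:53965391-53965450 and chr14:54285490-54285549, on the plus strand like the V segments.

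The libraries held 3126722 (-HOT R3) to 9280701 (+HOT R1) reads in sites, and both -HOT libraries held fewer than both +HOT libraries. Summed over the 338 sites, the raw reads were 11592 and 8638 in -HOT and 31771 and 26939 in +HOT. Depth thus went with the group, and its part in the calls at weak sites was not tested. Reads per site are given as normalised reads, the counts scaled to a common library size, and a site was tested when enough libraries passed a minimum of 10 counts at the average depth. The 2 libraries of a group are technical replicates from 1 cell line, so the SDs and p-values measure technical spread and not the spread between cultures. Over all sites, the -HOT libraries differed from each other with a chi-square of 1.09 per degree of freedom and the +HOT libraries with 1.41. The deleted part of Ash2l can be checked only weakly by CTCF reads. A site in exon 4 held 12 and 6 raw reads in -HOT and 10 and 19 in +HOT (log2FC -0.54, adjusted p = 0.543 by edgeR). Reads remained there in both +HOT libraries, and a partial loss of DNA was not detectable at this depth.

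CTCF binding rose at 62 of the 324 tested receptor sites after HOT and was lost at none. A site was called gained or lost at an adjusted p under 0.05 in edgeR's quasi-likelihood test, with Benjamini-Hochberg adjustment over all 99560 tested sites of the table, and a log2FC (+HOT over -HOT) beyond 1. The share gained was 19.1%, against 3.89% of all tested sites, and the share lost was 0 against 1.5% of all tested sites. Losses lay mostly near start sites: 1026 of the 1491 lost sites of the table were promoter sites outside the loci. Of the members 89.3% were intergenic, so the absence of lost sites is not read as a trait of these loci. Without the fold threshold 106 members were higher and 10 lower at that adjusted p, against 9.45% higher and 9.08% lower of all tested sites. The log2FC of the 10 lower sites ran from -0.70 to -0.26. At an unadjusted p under 0.05, 23 members were lower, 1 of them with a log2FC below -1, and DESeq2 gave 0 lost members too. Both +HOT libraries exceeded both -HOT libraries at 192 of the 338 members, among them all 62 gained sites, against 29.3% of all sites.

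The gain was unequal among the loci. Igh had 32 gained sites of 100 tested (32%), Igk 15 of 82 (18.3%), Igl 2 of 11 (18.2%), Tcra/Tcrd 12 of 89 (13.5%) and Tcrb 1 of 42 (2.38%). The median log2FC of the tested sites was 0.77 at Igh, 0.61 at Igk, 0.42 at Igl, 0.36 at Tcra/Tcrd and 0.18 at Tcrb, beside 0.01 over all tested sites. On sites with at least 80% of their 32-base words unique in the genome, a restriction added after the data were seen, the medians were -0.095 at Igl and -0.036 at Tcra/Tcrd, and leaving out 1 library moved Igl as low as 0.10 and Tcrb as low as 0.068. Differences between the loci were not tested, since sites of one locus are not replicates. The Igh count fell to 14 without the -HOT library R1 and to 14 with DESeq2, the Igk count rose to 25 without the +HOT library R1, the Tcrb count was 2 without -HOT R1 and the Igl count 1 without -HOT R3. DESeq2 kept 35 of the 62 calls, and gave no adjusted p for 18 of the 62.

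**Figure D1:**
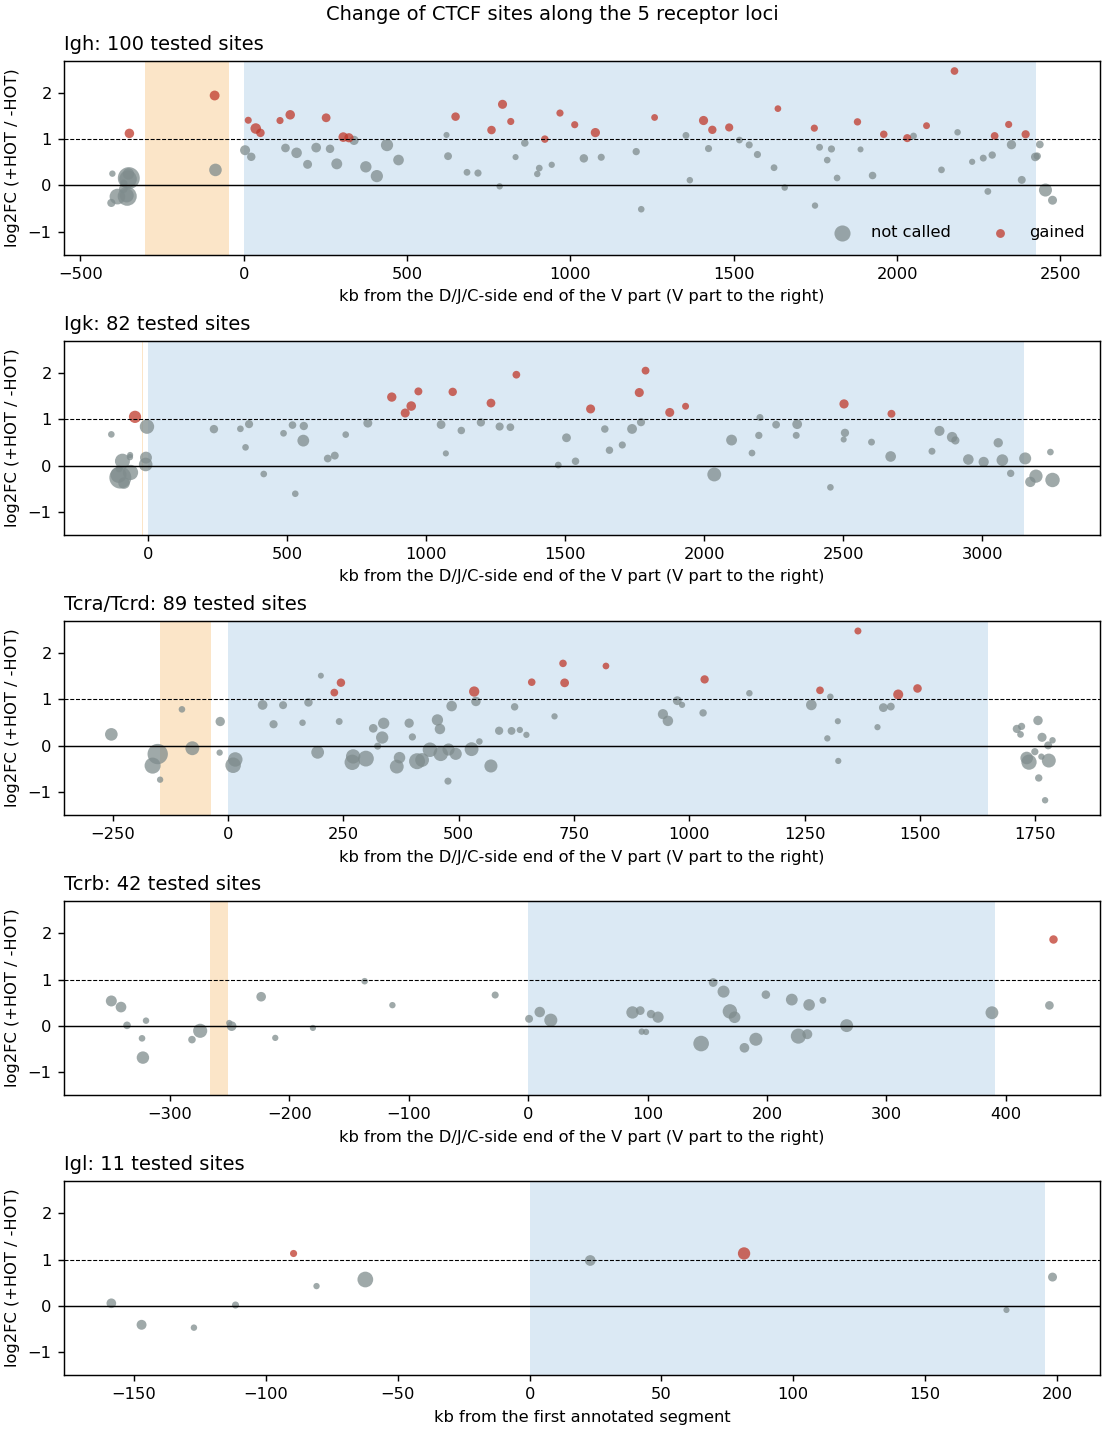
log2FC of each tested CTCF site (vertical axis, +HOT over -HOT) along the 5 loci, plotted against the distance within the locus in kb, with point area rising with the mean normalised reads and gained sites in red. Blue shading marks the V part (at Igl all segments), orange shading the D, J and C segments, and the dashed line a log2FC of 1, which 32 gained sites pass at Igh and 1 at Tcrb.

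The 62 gained members had group means from 6.45 to 71.2 normalised reads in -HOT and from 24.7 to 153 in +HOT, and their folds ran from 2.01 to 5.60. They were sites of low to middle strength. A further 44 members were higher at the adjusted p but under the fold threshold, the nearest with a log2FC of 0.98, while the smallest log2FC of a gained member was 1.01. Of the 14 members that were not tested, 7 were at Igh, 3 at Igk and 4 at Tcra/Tcrd, and a fit without the filter on low counts gave them a median log2FC of 0.58 and called none. That fit gave a median of 0.52 over all 338 members. Only 8 tested members passed the count minimum in both +HOT libraries and in no -HOT library, 2 of them gained, and 255 passed in all 4 libraries, 45 of them gained.

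Most gained sites lay between the receptor segments. Between the first and last annotated segment of the loci, 58 of 259 tested sites were gained (22.4%, median log2FC 0.63). In the flanks inside the same windows, 4 of 65 were gained (6.15%, median log2FC 0.04). Tcrb had the opposite order, with 0 of 33 gained between the segments and 1 of 9 in the flanks. Summed over the sites between the Igh segments, the share of all site reads was 0.0320% and 0.0361% without HOT and 0.0588% and 0.0673% with HOT, a 1.79-fold difference of the group means of normalised reads. For the flanks of Igh the shares were 0.0291% and 0.0296% in -HOT and 0.0301% and 0.0317% in +HOT, a 1.02-fold difference. Between the segments the groups lay far apart, and in the flanks they lay side by side. Whether the stretches differ was not tested. The corresponding folds between segments were 1.56 at Igk, 2.03 at Igl, 1.12 at Tcra/Tcrd and 1.10 at Tcrb, and in the flanks 0.931, 1.26, 0.883 and 1.12.

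Over the whole windows, both +HOT libraries held a larger share of the site reads than both -HOT libraries at each of the 5 loci. At Igh the shares were 0.0611% and 0.0658% in -HOT and 0.0890% and 0.0989% in +HOT (1.43-fold). At Igk they were 0.0662% and 0.0673% in -HOT and 0.0868% and 0.0901% in +HOT (1.28-fold), and at Igl the fold was 1.45. The smaller folds were 1.06 at Tcra/Tcrd and 1.10 at Tcrb. Each of the 5 tests gave p = 0.33 in the exact two-sided permutation test (0.33 after Benjamini-Hochberg adjustment over the 5), the smallest p that 2 libraries against 2 allow.

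Site strength moved with the change across the whole table, and the members were compared with sites of their own strength. Over all tested sites the median log2FC was -0.00 for sites under 20 mean normalised reads, 0.10 from 20 to 40, 0.26 from 40 to 80, -0.04 from 80 to 160 and -0.32 above 160. In the Igh V part, the stretch from the first to the last V segment, the medians were 0.51, 1.03 and 1.01 in the first 3 of these classes, with 3 of 27, 16 of 29 and 11 of 22 tested sites gained. Taking 20 to 80 reads together, 55 of 167 tested members were gained (32.9%), against 6.83% of all tested sites in that range. Intergenic sites of like strength are the nearer background. Of these, 9.9% were gained from 20 to 40 reads and 11.8% from 40 to 80, with median log2FC of 0.25 and 0.43. The members of any location had 34.1% and 31.6% gained in these classes. Members were intergenic at 302 of 338 sites (89.3%, against 43.4% of all sites), and 61 of 289 tested intergenic members were gained, against 5.85% of all tested intergenic sites. These shares describe these libraries.

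A scaling that sets the median change to 0 along site strength lowered the counts without removing them. Under it 46 members were gained, 23 at Igh, 10 at Igk, 2 at Igl, 10 at Tcra/Tcrd and 1 at Tcrb, against 2.28% of all tested sites, and 45 of the 62 calls were among them. The median log2FC of the V parts was then 0.75 at Igh (0.83 before), 0.62 at Igk (0.73), 0.34 at Tcra/Tcrd (0.50) and 0.09 at Tcrb (0.22). At the strong end and without that scaling, 18 of the 22 members above 160 reads had a negative log2FC. Of the 22, 7 were lower and none was lost, against 9.08% lower of all tested sites of any strength. Their median log2FC was -0.24, beside -0.32 for all 9305 tested sites above 160 reads, of which 15 were lost. The share of lower sites among those 9305 was not counted. These counts are therefore not read as particular to the members.

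**Figure D2:**
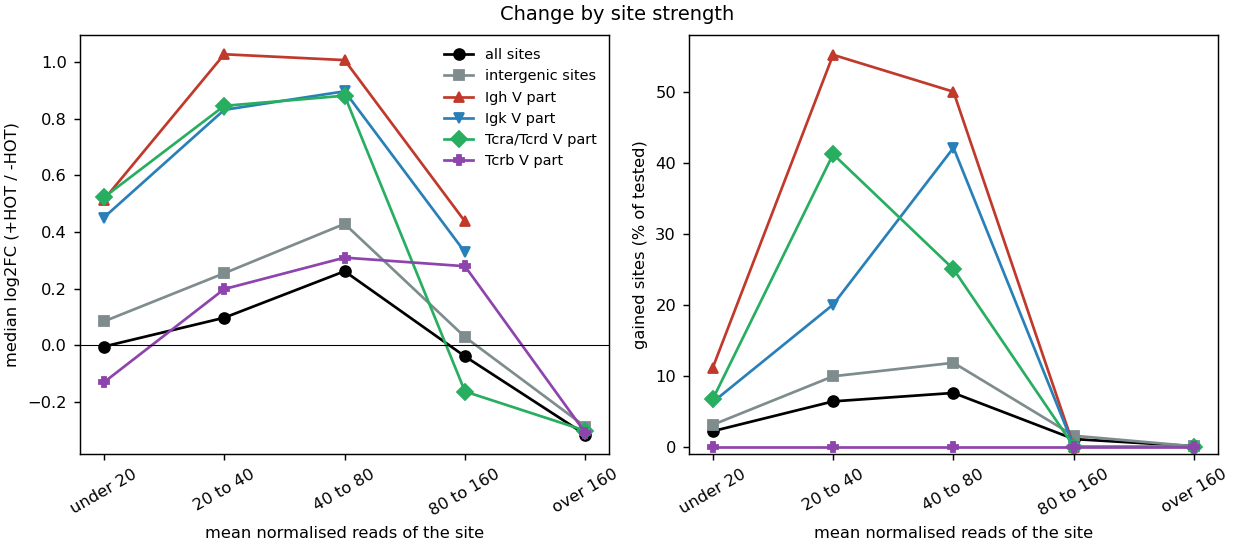
Median log2FC (left) and percent of tested sites gained (right) by class of mean normalised reads, for all sites, intergenic sites and the V parts of 4 loci. The Igh, Igk and Tcra/Tcrd lines lie above both backgrounds in the classes from 20 to 80 reads. There the medians are 1.03 and 1.01 at Igh, 0.10 and 0.26 for all sites and 0.25 and 0.43 for intergenic sites.

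Igh, the heavy chain locus, gained CTCF reads along its whole V part. Of the 88 V part sites 82 were tested, 30 were gained, 39 were higher and none was lower. Over 4 stretches of equal length from the D side, the median log2FC was 0.82, 0.74, 0.82 and 0.96, with 8, 8, 6 and 8 gained sites. The V part extends over the Ighv2 and Ighv5 families at the D end and the large Ighv1 family at the far end. Under scaling along strength the 4 medians were 0.60, 0.68, 0.80 and 0.76. All 87 V part sites with a match read toward the D, J and C segments, the direction in which VH segments are read. By contrast, the 6 flank sites closest to the annotated constant genes, 46.9 to 55.1 kb past Ighe, all read the opposite way, so the V part matches and this cluster face each other. These 6 sites were singled out after their values were seen.

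Beside Ighd1-1 the D-side site (chr12:114723253-114723803, 3.13 kb from the segment) had 25.0 and 25.9 normalised reads in -HOT and 86.6 and 112 in +HOT. The groups were far apart, with both +HOT libraries several-fold above both -HOT libraries. The mean rose from 25.4 ± 0.614 to 99.5 ± 18.2 (SD, n = 2), 3.87-fold, with a log2FC of 1.95 (SE 0.25) and an adjusted p of 2.18e-08 in edgeR, the smallest among the Igh sites. The V-side site (chr12:114725746-114726342, 5.64 kb from Ighd1-1), described here because it is the partner in the pair, had 92.7 and 113 reads in -HOT and 127 and 130 in +HOT. Its groups did not overlap, yet the difference was small, from 103 ± 14.7 to 129 ± 2.31 (log2FC 0.34, SE 0.16, adjusted p = 0.130 by edgeR). The V-side site was the stronger of the pair in each library, by less in +HOT.

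Among VH-proximal sites, Ighv12-3 (chr12:115604401-115604872, 101 bp from the segment) had 14.7 and 31.8 reads in -HOT and 67.7 and 83.5 in +HOT, a 3.39-fold rise (log2FC 1.76, SE 0.28, adjusted p = 3.56e-06 by edgeR). The Ighv2-6 site (chr12:114954595-114955060) had 32.4 and 23.9 against 68.4 and 101 (2.90-fold, log2FC 1.53, adjusted p = 1.00e-05). In both, the lower +HOT library held more than 2 times the reads of the higher -HOT library. The Ighv2-3 site (chr12:114849104-114849580) had 32.4 and 59.7 in -HOT and 100 and 108 in +HOT (2.36-fold, log2FC 1.24, adjusted p = 1.97e-05), and its call ended without -HOT R1 (log2FC 0.79) and under scaling along strength and GC content (0.99). The Ighv5-6 site had 26.5 and 23.9 against 54.0 and 58.5 (log2FC 1.14, adjusted p = 0.00193), a call that ended under scaling along strength (0.94), and the Ighv7-4 site 20.6 and 21.9 against 52.7 and 67.9 (log2FC 1.49, adjusted p = 1.16e-04). The Ighv11-1 site, stronger from the start, had 113 and 85.6 against 120 and 113 reads, and its groups met at 113 (log2FC 0.20, SE 0.16, adjusted p = 0.435).

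The 25 sites with a match just past a VH segment had a median log2FC of 0.92 (0.20 to 1.76), with 11 gained and 18 higher, and 0.74 with 8 gained under scaling along strength. By family, bound flanks were found at 7 of 10 Ighv2 segments (5 of the sites gained), 8 of 10 Ighv5 (2 gained), 3 of 4 Ighv7 (2 gained), 2 of 2 Ighv6 (1 gained), 2 of 2 Ighv11 (0 gained), 1 of 1 Ighv12 (1 gained), 1 of 1 Ighv4 (0 gained) and 1 of 2 Ighv10 (0 gained). The 57 Ighv1 segments, the largest family, had no match on their own strand in that window. The 50 sites nearest to an Ighv1 segment lay elsewhere, 44 of their 50 matches upstream of the nearest V segment at a median of 3755.5 bp from its 3′ end. They changed all the same, with 17 of 47 tested sites gained and a median log2FC of 0.80, beside 13 of 35 and 0.88 for the other families.

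The site with the largest log2FC at Igh lay 7.30 kb from Ighv1-71 (chr12:116987867-116988177) and had 4.41 and 13.9 reads in -HOT and 43.6 and 53.0 in +HOT. Its +HOT libraries were similar and its -HOT libraries held few reads (5.60-fold, log2FC 2.48, SE 0.40, adjusted p = 3.77e-06 by edgeR). A site 9.40 kb from Ighv1-47 (chr12:116219681-116220149), in unique sequence, had 26.5 and 29.9 against 78.1 and 70.2 reads (2.66-fold, log2FC 1.41, adjusted p = 3.59e-05). Repeated sequence makes reads hard to place here: only 41.1% of the 32-base words of the Ighv1-71 site occur once in the genome, and the median over the Igh V part was 72.1%. Among the 38 V part sites with at least 80% unique words, 37 were tested, 15 were gained and the median log2FC was 0.92. The reads were single reads longer than these words, so that more reads than words can be placed once, and the part of read placement was not tested further.

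**Figure D3:**
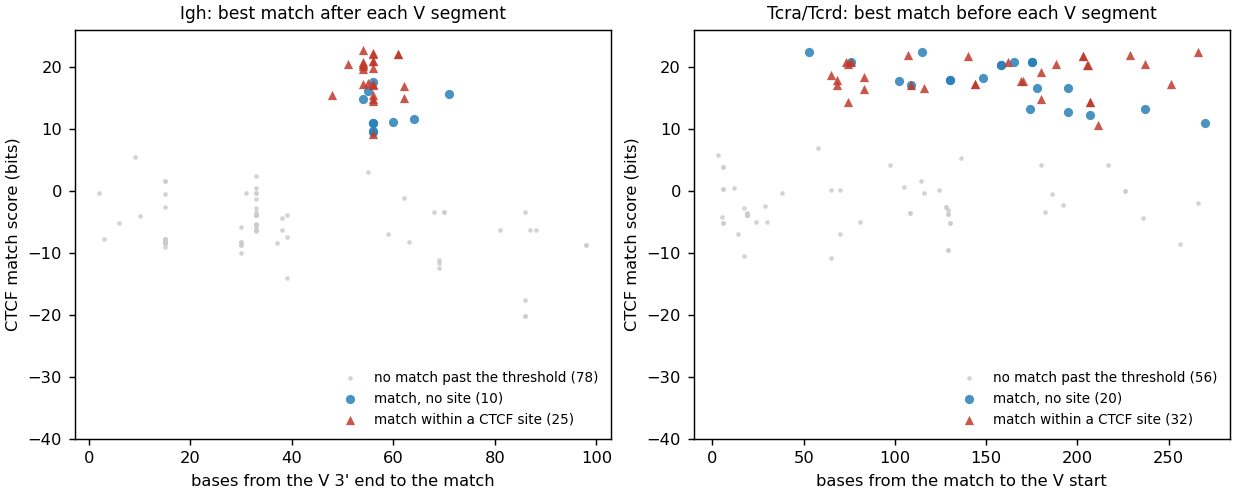
Position of the best CTCF match on the V strand beside each V segment against its score in bits. Positions in bases are after the V segment at Igh (left) and before it at Tcra/Tcrd (right). Triangles mark matches past the threshold of 8.80 bits inside a site, circles such matches outside any site and small points the V segments without one. The 25 Igh matches in a site gather 48 to 62 bases past the V segment, and the 32 Tcra/Tcrd matches spread from 65 to 266 bases before it.

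Beyond the 3′ end of Igh, where a cluster of CTCF sites is known to bound the locus, the strong sites passed no test. The strongest (chr12:114460156-114461463) had 396 and 440 in -HOT and 464 and 464 in +HOT, and the second (chr12:114455310-114456595) had 313 and 326 against 254 and 291. The groups did not overlap at either site, in opposite directions, and neither passed the test (log2FC 0.16, adjusted p = 0.172, and log2FC -0.23, adjusted p = 0.0798, by edgeR). The weakest of the 6 (chr12:114462370-114462826) was gained, from 29.4 and 41.8 to 65.8 and 88.1 reads (log2FC 1.13, adjusted p = 5.22e-04), and its call ended under scaling along strength (log2FC 0.89). It was the sole gained site of 16 tested in the Igh flanks.

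Igk, the larger light chain locus, gained reads over its V part with fewer sites near V segments. Of 66 V part sites 64 were tested, 14 were gained, 29 were higher and none was lower (median log2FC 0.73). In the stretch nearest the J segments, the first of 4 of equal length, none of 13 sites was gained (median 0.67), and the next 2 had 7 of 17 and 5 of 18 gained (0.92 and 0.84). The farthest stretch had 2 of 16 gained and the lowest median (0.50). Vκ segments are known to lie in both orientations. The matches followed this, with 26 reading toward Igkj1 and 39 away, and 51 of 65 on the strand of the nearest V segment. Few lay at a segment: 3 of 66 sites were within 1000 bp of a V, against 35 of 88 at Igh. None of 102 Vκ segments had a match on its own strand in the 120 bases after it, and the other strand was not searched there.

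The largest Igk change was at a site 4.78 kb from Igkv4-86 (chr6:68865517-68865907), with 10.3 and 13.9 reads in -HOT and 45.6 and 54.6 in +HOT. Every +HOT value was above 45 and every -HOT value under 14 (4.17-fold, log2FC 2.06, SE 0.35, adjusted p = 1.49e-05 by edgeR). A site near Igkv4-63 (chr6:69330344-69330717) had 8.83 and 15.9 against 45.6 and 48.4 reads (3.92-fold, log2FC 1.97, adjusted p = 4.12e-05). The sites near Igkv13-84, Igkv5-43 and Igkv12-46 rose 3.00-fold, 2.80-fold and 2.45-fold, each with both +HOT libraries above 70 reads and both -HOT libraries under 38.

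In the interval between the Igk V and J segments, which is known to hold Cer and Sis, 1 of the 3 sites was higher. The V-side site (chr6:70659253-70660099, 12.9 kb from Igkj1) had 115 and 113 reads in -HOT and 208 and 201 in +HOT. Its replicates were close to each other, and the rise of 1.79-fold (log2FC 0.84, SE 0.13, adjusted p = 2.89e-06 by edgeR) stayed under the fold threshold, which it passed under scaling along strength (1.01). The middle site (chr6:70663002-70663533, 9.29 kb) had 86.8 and 105 against 105 and 108, and the J-side site (chr6:70664033-70664630, 8.23 kb) 146 and 129 against 147 and 133. Their groups overlapped or touched, and neither passed the test (log2FC 0.17, adjusted p = 0.547, and log2FC 0.02, adjusted p = 0.942). The V-side site was the one whose match read away from the J segments.

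Past Igkc, the constant segment, one flank site 25.9 kb downstream (chr6:70702320-70702939) was gained, from 64.7 and 77.6 to 144 and 149 reads (2.08-fold, log2FC 1.06, SE 0.17, adjusted p = 3.73e-06 by edgeR). Its groups were well apart, but the log2FC was close to the threshold and fell to 1.00 under scaling along strength, 0.96 with GC content added and 0.90 without -HOT R1, where the call ended. The strongest site of all members lay on the side of Rpia, a pentose phosphate enzyme gene (chr6:70754426-70756554). It had 485 and 539 reads in -HOT and 452 and 394 in +HOT, lower in both +HOT libraries (log2FC -0.26, SE 0.08, adjusted p = 0.0151). The second strongest (chr6:70761765-70762290) had 228 and 197 against 183 and 190 (log2FC -0.20, adjusted p = 0.231).

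Igl, the small light chain locus, held 11 sites, 3 of them between its annotated segments. The site 51.8 kb from Iglc2 (chr16:19146223-19147108) had 70.6 and 67.7 reads in -HOT and 141 and 165 in +HOT, so that both +HOT libraries were near 2 times the -HOT level or above it (2.19-fold, log2FC 1.13, SE 0.17, adjusted p = 9.09e-07 by edgeR). Its near copy 62.3 kb from Iglc3 (chr16:19002583-19003492) had 168 and 143 against 231 and 235 (1.48-fold, log2FC 0.57, SE 0.12, adjusted p = 3.18e-04). Both copies were higher in both +HOT libraries, the stronger one by less. A weak site near Hira, a histone chaperone gene (chr16:18975646-18976006), went from 11.8 and 15.9 to 28.7 and 31.2 reads (log2FC 1.13, SE 0.38, adjusted p = 0.0281), and its call ended in 3 of the 4 fits that left out a library. As copies share sequence, reads may be divided between them, and these values are uncertain to that extent.

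**Figure D4:**
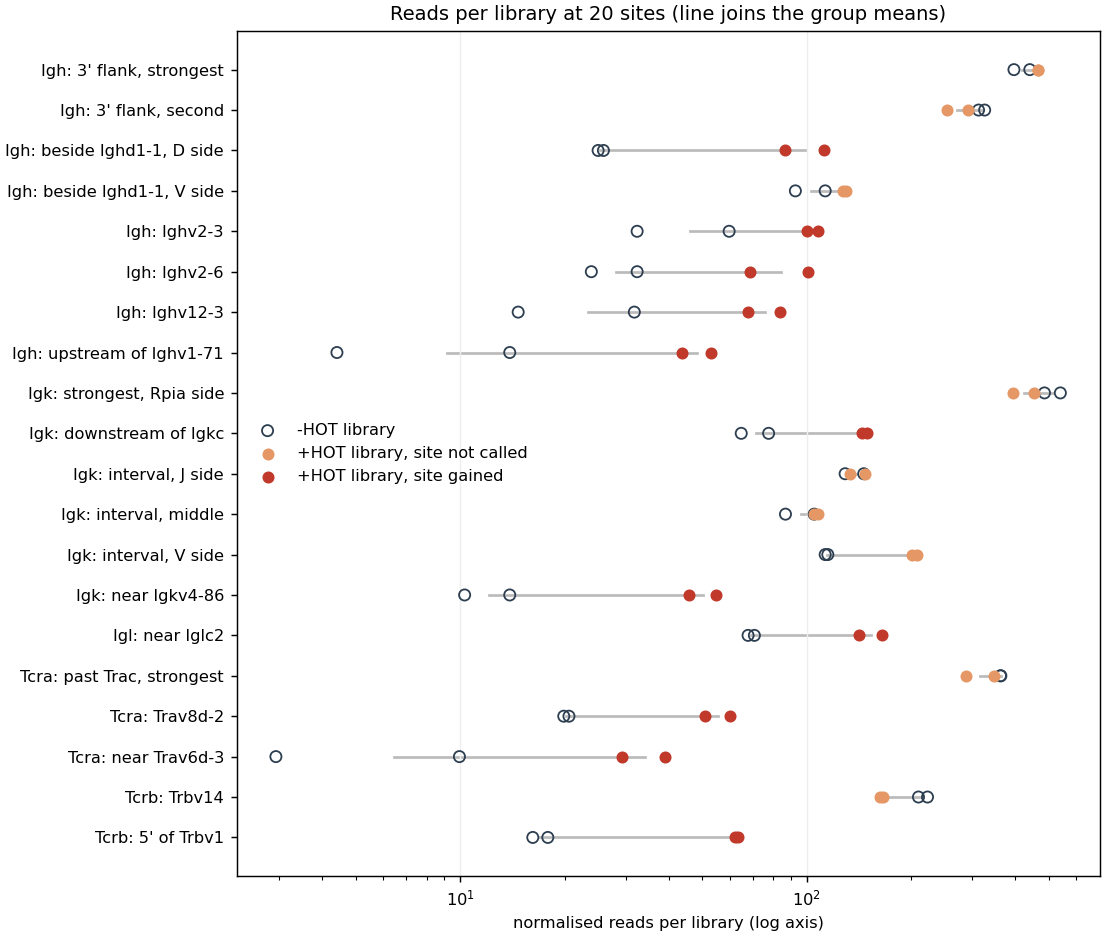
Normalised reads per library (log axis) at 20 sites of the 5 loci, with open points for -HOT, filled points for +HOT and a line joining the group means. The D-side site beside Ighd1-1 goes from about 25.4 to 99.5 reads and the V-side site from 103 to 129, and the strongest sites of the flanks lie at the right in both groups.

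At Tcra/Tcrd, which encodes the α and δ chains, the weaker V part sites lay above the median of their strength and the strong ones near it. Of its 71 V part sites 67 were tested, 12 were gained, 23 were higher and 5 were lower (median log2FC 0.50). The 48 sites under 80 normalised reads held all 12 gained sites and none of the lower ones (median 0.84, against 0.10 for all tested sites in that range). The 19 sites at 80 reads or above held all 5 lower sites and 1 higher one (median -0.24, against -0.17). Of all tested sites of any strength 9.08% were lower, and the share among all strong sites was not counted. The lower sites are therefore not read as particular to this locus. Over 4 stretches of equal length from the δ and J side the median log2FC was 0.28, 0.33, 0.88 and 0.86, larger in the 2 farthest. Under scaling along strength the 4 medians were 0.15, 0.17, 0.75 and 0.70. The 2 farthest stretches held no site above 77.1 reads, so all the strong sites lay in the 2 nearest. The part of strength in this order was not tested.

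Sites at Tcra sat just upstream of V segments, the opposite side to Igh. Of 108 V segments 52 had a match on their own strand in the 300 bases before the segment. Of these, 32 were in a site, at 65 to 266 bases (median 165.5). By comparison 15 of 108 had such a match in the 120 bases after the segment, 0 of these in a site. V promoters are known to lie in this upstream stretch. Of 65 V part matches 57 read toward the J and C segments. Among the 32 sites, 30 were tested, 6 were gained, 11 were higher and 4 were lower, with a median log2FC of 0.53.

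The Trav8d-2 site (chr14:53661668-53662097) had 20.6 and 19.9 reads in -HOT and 50.8 and 60.1 in +HOT (2.71-fold, log2FC 1.44, SE 0.30, adjusted p = 2.85e-04 by edgeR), and its near copy at Trav8n-2 (chr14:53965244-53965641) had 19.1 and 31.8 against 56.7 and 71.0 (2.57-fold, log2FC 1.36, adjusted p = 2.39e-04). Both copies showed +HOT libraries above 50 reads and -HOT libraries under 32. The Trav18 site (chr14:54450352-54450759) had 19.1 and 25.9 against 52.7 and 61.6 (2.57-fold, log2FC 1.36, adjusted p = 3.97e-04), and the Trav5-1 site (chr14:53241795-53242266) 41.2 and 41.8 against 87.3 and 92.0 (2.16-fold, log2FC 1.11, adjusted p = 1.38e-04). The Trav18 and Trav5-1 sites lie in unique sequence. Under scaling along strength the log2FC was 0.88 at Trav5-1 and 0.95 at a gained site 3.12 kb from Trav13-1 (chr14:54161313-54161826, 2.25-fold, log2FC 1.17, adjusted p = 4.02e-05), and both calls ended.

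The largest fold at Tcra, 5.60-fold, lay 15.6 kb from Trav6d-3 (chr14:53329211-53329590), at a site with 23.2% unique words. It had 2.94 and 9.95 normalised reads in -HOT against 29.3 and 39.0 in +HOT (log2FC 2.49, SE 0.47, adjusted p = 7.03e-05 by edgeR). The raw -HOT counts were lower still, since scaling raised the values of the shallower -HOT libraries. At the other end, the strong site upstream of Trav3-3 (chr14:54285149-54285793) had 234 and 215 reads in -HOT and 190 and 165 in +HOT. It was lower in both +HOT libraries (log2FC -0.34, SE 0.12, adjusted p = 0.0287), with a log2FC of -0.05 under scaling along strength. The other lower V part sites, near Trav10, Trav6-7-dv9, Trav17 and Trdv4, held 107 to 237 reads per library, and none of the 5 passed the fold threshold.

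Of 2 sites between Trdv4 and the first D segment, one (chr14:54712090-54712554) had 44.1 and 43.8 against 61.2 and 65.5 reads (log2FC 0.52, adjusted p = 0.112) and the other (chr14:54713443-54713690) 13.2 and 11.9 against 10.4 and 12.5 (log2FC -0.15, adjusted p = 0.891). The first was higher in both +HOT libraries without passing the test, and the second overlapped. The strongest Tcra site lay 5.10 kb past Trac, the constant segment, on the way to Dad1, an oligosaccharyltransferase subunit gene, in the stretch known for the T cell enhancer of this locus (chr14:54847355-54848396). It had 363 and 362 reads in -HOT and 347 and 288 in +HOT (log2FC -0.18, adjusted p = 0.166), and the next site (chr14:54858596-54859308) 200 and 273 against 184 and 157 (log2FC -0.44, SE 0.12, adjusted p = 0.00639). None of the 17 flank sites was gained.

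Tcrb, the β chain locus, had the fewest gained sites. None of its 24 V part sites was gained, 3 were higher and 1 was lower, with a median log2FC of 0.22, and its sites were stronger, with a median of 91.7 normalised reads in the V part against 22.4 at Igh. The Trbv14 site (chr6:41086865-41087442), the strongest, had 210 and 223 reads in -HOT and 166 and 163 in +HOT. Both +HOT libraries were lower (log2FC -0.39, SE 0.12, adjusted p = 0.0123 by edgeR). Its match, shown with 20 bases on each side at chr6:41087148-41087207 on the plus strand, reads toward the D, J and C segments.

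Trbv14 site: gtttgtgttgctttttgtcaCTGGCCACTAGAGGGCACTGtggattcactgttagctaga

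The second strongest, near Trbv4 (chr6:41005475-41006003), had 206 and 175 against 165 and 164 (log2FC -0.23, adjusted p = 0.196). Of 20 V part matches 18 read toward the D, J and C segments.

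The long interval between Trbv30 and Trbd1, which is known to hold trypsinogen genes, contained 8 sites with a median log2FC of 0.25, and 1 was higher. That site, 27.7 kb from Trbd1 (chr6:41455328-41455761), had 45.6 and 45.8 reads in -HOT and 72.3 and 68.6 in +HOT (1.54-fold, log2FC 0.63, SE 0.23, adjusted p = 0.0409 by edgeR). The site 2.96 kb from Trbd1 (chr6:41480063-41480416) had 64.7 and 51.8 against 57.3 and 60.1, fully overlapping (log2FC -0.01, adjusted p = 0.980). The other 4 of the 6 strongest interval sites had log2FC values from -0.27 to 0.96 and adjusted p of 0.139 and above.

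The sole gained Tcrb site lay outside the segments, 48.4 kb from Trbv1 (chr6:40792714-40793141), and had no CTCF match past the threshold. It had 16.2 and 17.9 reads in -HOT and 61.9 and 63.2 in +HOT, with tight replicates in both groups (3.67-fold, log2FC 1.88, SE 0.30, adjusted p = 4.40e-06 by edgeR). On the other side, 46.2 kb from Trbv31 and near the promoter of Ephb6, an ephrin receptor gene, a site chosen after its values were seen (chr6:41554279-41554812) had 128 and 153 against 90.5 and 80.3 reads (log2FC -0.70, adjusted p = 0.00101). It was the lowest log2FC among the 10 lower members.

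Outside the loci, promoters of the genes that serve them showed no common gain. Of 14 recombination and end joining genes, 7 had a CTCF site within 3000 bp of a start site, with 10 sites in all. One was gained, at Dclre1c, which encodes the nuclease Artemis, from 8.83 and 13.9 to 26.7 and 32.8 reads (log2FC 1.41, SE 0.41, adjusted p = 0.00900 by edgeR), against 1.3% of tested promoter sites outside the loci gained and 6.01% lost. The Dclre1c call ended with DESeq2 and without -HOT R1. Sites at Polm, a joining polymerase (2 sites), and Xrcc5, a subunit of the Ku end-binding complex, were lower with log2FC from -0.81 to -0.54, which is 3 of 10 sites against 24% of tested promoter sites outside the loci, and Rag1, the recombinase subunit, had 51.5 and 19.9 against 57.3 and 37.4 reads (log2FC 0.34, adjusted p = 0.447). Of 18 lymphoid transcription factor genes 13 had a site, with 22 sites, none gained or lost and 4 of 22 lower, 1 each at Bcl11b, Foxo1, Pou2f2 and Runx1. Of 15 receptor complex genes only Cd247, the ζ chain of the T cell receptor, had a site (log2FC 0.20, adjusted p = 0.522). The list medians were -0.21, -0.34 and 0.20, beside -0.28 for all promoter sites outside the loci.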

How the data were processed

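Single-end CTCF ChIP-seq reads had been trimmed with Trim_Galore, aligned to mm9 with BWA, freed of duplicates and blacklisted regions with SAMtools, and narrow peaks called with MACS2 (for versions and read counter: not given in the sources used here). Raw read counts per site for 4 immunoprecipitations were deposited by the authors, with 4 further columns of normalised values and their own fold changes and p-values (vehicle against HOT), none of which was used. The 4 input libraries were not analysed. The deposited columns are numbered R1 and R3 and the sample titles R1 and R2, so columns were assigned to groups only and numbers pair no libraries.

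Counts of the whole table were fitted with edgeR 4.0.16 (R 4.3.3; TMM, a minimum count of 10 in filterByExpr, robust quasi-likelihood fit without covariate) and adjusted after Benjamini-Hochberg. SE is the log2FC divided by the root of F, and normalised reads were obtained by scaling each library's counts to the mean effective library size. Site reads of 3126722 to 9280701 per library limit the precision of weak sites, more so in the -HOT libraries, which were both shallower. Alternatives were DESeq2 1.42.0, its size factors, total counts, scaling along strength with and without GC content (limma 3.58.1), other filters and thresholds, a block, each library left out, and, added after the data were seen, sites with at least 80% unique 32-base words. The test was tried on simulated counts first.

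Segments came from the annotation of NCBIM37, the assembly of mm9; 212 of 217 gene models without a segment name took theirs from RefSeq synonyms (names only). The CTCF matrix (20 positions) was derived from the 5000 strongest sites outside the windows, and a match had to exceed 8.80 bits, which 5% of windows shifted by 5000 bp passed and 82.5% of all sites. The named sites were, per locus, up to 6 called sites by smallest p, the 2 strongest, and up to 6 sites of the interval between V and D or J. The members, lists and rules were chosen with earlier results of these data known.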

Additional observations from a re-analysis of the deposited data

How the results depend on the processing

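All 62 gained sites kept a positive log2FC under each alternative except the filter on a mean of 20 counts, which tested 61 of them. The direction of no called result turned. With DESeq2 there were 35 gained members (14 at Igh, 6 at Tcra/Tcrd, 1 at Igl), and 0 gained promoter sites of recombination factors. Without the fold threshold 106 members were higher (31 at Igk, 4 at Igl, 23 at Tcra/Tcrd, 6 at Tcrb) and 10 lower (1 at Igk, 7 at Tcra/Tcrd, 2 at Tcrb). At a log2FC beyond 0.58 there were 98 (29 at Igk, 21 at Tcra/Tcrd, 4 at Tcrb) and 1, at Tcrb. Scaling along strength and GC content left 21 gained sites at Igh and 9 at Igk. With that scaling the medians were 0.57 at Igh, 0.22 at Tcra/Tcrd and 0.057 at Tcrb, and with strength alone 0.60, 0.24 and 0.092. The Tcra/Tcrd median was 0.34 with DESeq2 size factors and 0.41 with total counts.

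Restricting to sites between the segments gave 1 gained site at Igl and 0 at Tcrb, with medians of 0.98 at Igl and 0.49 at Tcra/Tcrd. Restricting to at least 80% unique words, chosen after the data were seen, gave 27 gained sites (17 at Igh, 5 at Igk, 0 at Igl, 4 at Tcra/Tcrd) and medians of -0.095 at Igl and -0.036 at Tcra/Tcrd. In the V part of Tcra/Tcrd alone, such sites had a median of 0.50 (4 of 21 gained), beside 0.51 for the others. Why the medians fell was not tested. Within 300 bp of a V segment lay 28.4% of V part sites at Igh and 16.7% at Tcrb, against 39.8% and 37.5% within 1000 bp.

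Leaving out each library in turn gave 42 to 78 gained members, 14 to 35 at Igh, 12 to 25 at Igk, 1 to 2 at Igl, 9 to 15 at Tcra/Tcrd, 1 to 2 at Tcrb and 0 to 1 at recombination factors. The medians ranged from 0.67 to 0.88 at Igh, 0.48 to 0.75 at Igk, 0.10 to 0.69 at Igl, 0.33 to 0.40 at Tcra/Tcrd and 0.068 to 0.33 at Tcrb. With 1 library left in a group, it is assumed to vary like the other group. Taking the column number as a replicate block gave 64 gained members, all 62 among them, but the number is no known pairing. Sites under 20 normalised reads have the widest error, and changes there below the fold threshold were mostly not detectable at this depth.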
